A study of Mus musculus with 8 samples.

Results

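The small leucine-rich proteoglycans are secreted matrix proteins with a core of leucine-rich repeats, to which most members attach chondroitin, dermatan or keratan sulfate chains. They coat collagen fibrils and set their spacing and width, and several of them bind growth factors such as TGF-beta or engage receptors at the cell surface. In connective tissue, fibroblasts are a main source of them. Here 10 genes of this family were followed in mouse embryonic fibroblasts (MEFs), and the members were all array probes for genes whose name in the scanner files was Dcn, Bgn, Lum, Fmod, Ogn, Omd, Aspn, Prelp, Kera or Podn. These were 13 of the 41174 gene probes, or 10 of 27745 gene names. Of the 13, 10 probes for 9 genes were kept, because 2 or all 3 extracts of a genotype gave a signal well above background.

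The study compared Lats2-/- MEFs, which lack a kinase of the Hippo pathway, with Lats2+/+ MEFs of the same litter. Both genotypes were C57BL/6J by the labels, received no treatment and were grown in DMEM with fetal bovine serum and antibiotics. There were 3 litters, numbered 112, 116 and 121, and each gave 1 Lats2-/- and 1 Lats2+/+ extract, each from a cell clone that the labels name separately. The age of the embryos was not given in the sources used here, and the labels name no Cre driver. Each 2-colour array carried both extracts of a litter, with 2 arrays for litters 112 and 116, 4 arrays for litter 121, and the dyes swapped within each pair. All values below are log2 ratios of Lats2-/- over Lats2+/+ (a value of 1 is a doubling) or log2 signals, meaning array intensity after normalization. Signals near 6 lie at the floor of the array, and ratios of dim probes are compressed toward 0 by the background offset.

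The targeted gene was lower in Lats2-/- cells by the upstream Lats2 probe (A_52_P425064) on 8 of 8 arrays. The log2 ratios were -1.33 for litter 112, -1.05 for 116 and -0.56 for 121. The other 3 Lats2 probes were lower in litters 112 (-0.18 to -0.28) and 116 (-0.49 to -0.70) and higher, between 0.80 and 1.17, in litter 121. In litter 121 the genotype label therefore goes with 1 of the 4 probes. That probe was 1.48-fold lower there and gave a log2 signal of 7.33 in the Lats2-/- extract. Which probes lie in the deleted stretch was not given in the sources used here. Litters 112 and 116 lie on slide 1 and litter 121 on slide 2, so that litter 121 and its slide cannot be told apart. The share of gene probes well above background in 1 channel of an array ran from 52.9% to 61.3%.

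The family is spread over gene clusters. On chromosome 10 the probes of Dcn, Lum and Kera follow each other at distances of 55.0 and 41.0 kb, on chromosome 13 those of Aspn, Omd and Ogn at 25.4 and 31.7 kb, and on chromosome 1 the probes of Prelp and Fmod lie 137 kb apart. Bgn lies on chromosome X and Podn on chromosome 4. Promoter sequence from RefSeq (GRCm38.p6) was found for 8 of the 10 members. It is shown for the 3 genes whose kept probe was higher in Lats2-/- cells in every litter, Prelp, Fmod and Ogn, and for Aspn, a cluster neighbour of Ogn that was far lower in litter 121. Each sequence is the 250 bases before the start of the gene, read 5' to 3' on the strand of the gene. Capitals mark matches to a TEAD motif (GGAATG) or a TATA box (TATAAA) on either strand. TEAD factors bind DNA for YAP and TAZ, the coactivators that LATS kinases inhibit.
Prelp (chr1:133921402-133921651, minus strand): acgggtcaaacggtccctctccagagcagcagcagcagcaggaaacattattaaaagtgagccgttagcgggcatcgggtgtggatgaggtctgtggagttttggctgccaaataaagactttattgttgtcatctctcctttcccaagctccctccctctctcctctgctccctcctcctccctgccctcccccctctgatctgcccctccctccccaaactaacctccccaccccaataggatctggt
Fmod (chr1:134037004-134037253, plus strand): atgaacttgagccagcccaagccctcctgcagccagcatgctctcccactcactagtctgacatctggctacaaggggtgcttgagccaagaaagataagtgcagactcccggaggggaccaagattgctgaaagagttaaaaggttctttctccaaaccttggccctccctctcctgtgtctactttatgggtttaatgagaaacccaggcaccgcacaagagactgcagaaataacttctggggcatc
Ogn (chr13:49607765-49608014, plus strand): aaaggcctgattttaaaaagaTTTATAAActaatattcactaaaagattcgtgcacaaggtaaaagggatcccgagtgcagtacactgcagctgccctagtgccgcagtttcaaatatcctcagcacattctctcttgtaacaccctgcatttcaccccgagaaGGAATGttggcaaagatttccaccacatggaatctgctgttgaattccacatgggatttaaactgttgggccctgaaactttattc
Aspn (chr13:49544193-49544442, plus strand): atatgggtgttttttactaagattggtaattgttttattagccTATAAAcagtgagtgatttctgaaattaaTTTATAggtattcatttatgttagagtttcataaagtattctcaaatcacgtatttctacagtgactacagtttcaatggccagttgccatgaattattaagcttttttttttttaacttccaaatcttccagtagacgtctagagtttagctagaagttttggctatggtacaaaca
In the full windows of 250 bases before and 50 after the start, the TEAD motif was found in 1 of the 9 member promoters, that of Ogn, with its first base at -86 from the start. The TATA box was found in 2, Ogn and Aspn, with 2 matches in each; those of Ogn overlap, because TTTATAAA reads as a TATA box on both strands. The AP-1 motif (TGANTCA) was found in none of the 9. Of all 32851 mouse promoters of this length, 14.7% hold the TEAD motif, 7.81% the AP-1 motif and 13.6% the TATA box. Such a match is a run of letters and does not show binding.

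Prelp, which encodes a basic matrix protein that binds collagen and the perlecan of basement membranes, had the largest mean ratio of the members higher in every litter. The probe that passed the filter (A_52_P486260, mm8 chromosome 1, 135726768 to 135726827) gave log2 signals of 7.37, 7.15 and 7.34 in the Lats2+/+ extracts of litters 112, 116 and 121. In the Lats2-/- extracts it gave 8.88, 10.33 and 9.91. All 3 Lats2-/- signals lay above all 3 Lats2+/+ signals, and the Lats2+/+ signals were within 0.22 of each other. The log2 ratios were 1.51, 3.18 and 2.57, or 2.84-, 9.06- and 5.93-fold, with 8 of 8 arrays in this direction. The mean of 2.42 ± 0.85 (SD, n = 3 litters) had a limma p of 0.00317 before and of 0.711 after adjustment, so that it did not pass the adjusted threshold. Within slide 1 the mean of litters 112 and 116 was 2.34, and slide 2, with litter 121 alone, gave 2.57. The second Prelp probe (A_51_P439846, 135731455 to 135731514) carries the same transcript accession but was at the floor, with log2 signals of 6.07 to 6.32, and was well above background on 1 array in all. Its log2 ratios were 0.11, 0.04 and 0.12, so that the values above rest on 1 probe.

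Ogn encodes osteoglycin (mimecan), a member known from bone and many connective tissues. Its log2 signals (A_51_P295085, chromosome 13, 49636117 to 49636176) were 11.14, 10.63 and 12.30 in Lats2+/+ extracts and 12.46, 11.95 and 12.46 in Lats2-/- extracts. The 3 Lats2-/- extracts lay within 0.51 of each other, and the Lats2+/+ extract of litter 121 lay among them. The log2 ratios were 1.33, 1.32 and 0.16, and their mean was 0.93 ± 0.67 (SD, n = 3; p in limma of 0.0367 unadjusted and 0.711 adjusted). The unadjusted call was lost without litter 112 (mean 0.74, limma p of 0.149) and without litter 116 (mean 0.74, limma p of 0.143).

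Fmod encodes fibromodulin, which binds collagen and guides its cross-linking in tendon and other dense tissue. The gene was near the floor in Lats2+/+ cells, with log2 signals of 6.69, 6.46 and 6.57 (A_51_P207622, chromosome 1, 135863832 to 135863891). Lats2-/- signals were 6.87, 6.96 and 9.39. The groups did not overlap, but the high value was that of litter 121 alone. The log2 ratios of 0.19, 0.50 and 2.82 had a mean of 1.17 ± 1.44 (SD, n = 3; p in limma of 0.130 unadjusted and 0.748 adjusted), and was 0.34 without litter 121.

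Of the 10 kept member probes, 0 passed the adjusted threshold in limma, as did 0% of the 22642 kept probes. At an unadjusted p under 0.05, 2 member probes were higher in Lats2-/- cells, those of Prelp and Ogn, against 3.56% of all kept probes, and 0 were lower, against 3.29%. Signals of all 3 Lats2-/- extracts above all 3 Lats2+/+ extracts were found for 2 member probes (Prelp and Fmod), against 3.09% of kept probes. Ratios above 0 in all 3 litters were found for 3 (these and Ogn), against 15.0%. The median of the mean log2 ratio over the 9 member genes was 0.93, against 0.01 over the 14791 genes with a kept probe.

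**Figure D1:**
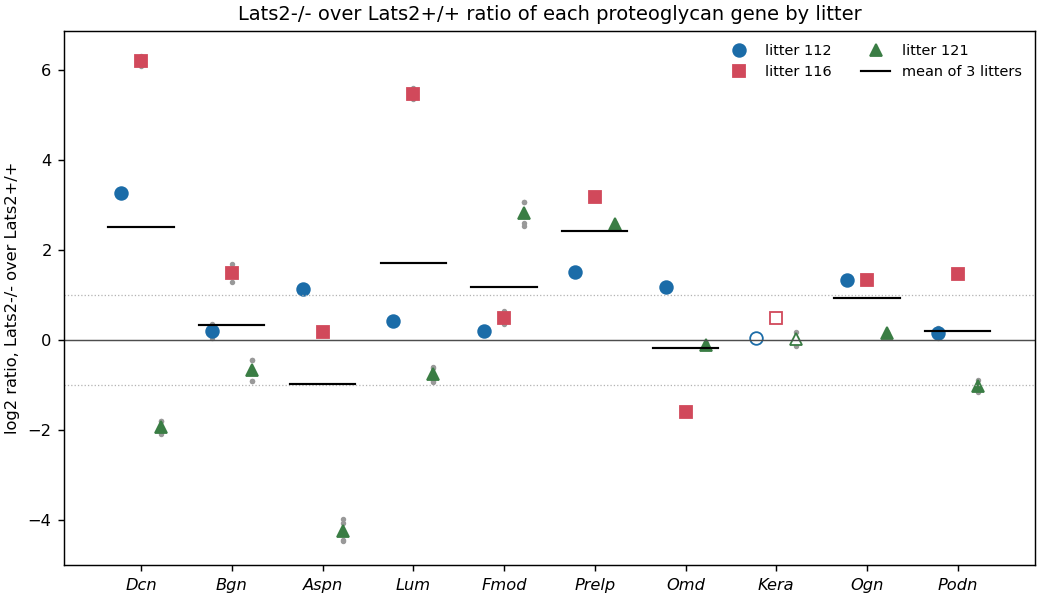
The vertical axis is the log2 ratio of Lats2-/- over Lats2+/+ for the brightest probe of each proteoglycan gene, with 1 large symbol per litter, small grey points for single arrays and a black line for the mean of 3 litters. Dotted lines mark 2-fold, and open symbols mark Kera, whose probe did not pass the filter. Prelp lies above 1 in all 3 litters, while Dcn spans 6.22 to -1.94.

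The class I members, Dcn, Bgn and Aspn, had ratios of opposite sign in different litters. Dcn encodes decorin, which binds collagen fibrils and TGF-beta. Its bright probe (A_51_P334104, chromosome 10, 96947287 to 96947346) gave log2 signals of 8.81, 9.62 and 13.14 in Lats2+/+ extracts of litters 112, 116 and 121, and of 12.07, 15.83 and 11.20 in Lats2-/- extracts. The Lats2+/+ extract of litter 121 was thus brighter than all but the brightest Lats2-/- extract, and the groups overlapped. The ratio in litter 116 was 6.22, which is 74.3-fold higher in the Lats2-/- extract, and that in litter 112 was 3.26, or 9.60-fold higher. Litter 121 went the other way, at -1.94 or 3.83-fold lower. The mean of 2.51 ± 4.13 (SD, n = 3 litters) had a limma p of 0.222 (0.780 after adjustment). Without litter 121 it was 4.74 (limma p of 0.0110), and without litter 116 it was 0.66.

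The second Dcn probe (A_52_P252726, 96910401 to 96910460) lies upstream of the first on the plus strand and did not pass the filter. In litter 116 it was measurable in the Lats2-/- extract alone, which was at least 1.77-fold higher, and in litter 121 in the Lats2+/+ extract alone. These directions are those of the bright probe in the same litters. In litter 112 neither extract was well above background. An "at least" value sets the brighter extract against the lowest signal well above background on the array or the probe's own signal, whichever is higher.

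Bgn encodes biglycan, a close relative of decorin that can also act as a ligand of the receptors TLR2 and TLR4. The bright probe (A_52_P162486, chromosome X, 69745935 to 69745994) gave log2 signals of 12.85, 12.14 and 13.63 in Lats2+/+ extracts and of 13.05, 13.62 and 12.95 in Lats2-/- extracts, so that the groups overlapped. The ratios were 0.20, 1.49 and -0.68, and the mean was 0.34 ± 1.09 (SD, n = 3; p in limma of 0.511 unadjusted and 0.896 adjusted). The dimmer probe (A_52_P19711, 69744406 to 69744465) gave -1.04, 1.03 and -0.49. Both probes were higher in litter 116 and lower in litter 121, and they disagreed in litter 112.

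Aspn encodes asporin, which binds collagen and TGF-beta. Its log2 signals (A_51_P142813, chromosome 13, 49579047 to 49579106) were 8.98, 10.46 and 10.95 in Lats2+/+ extracts and 10.11, 10.64 and 6.70 in Lats2-/- extracts. The Lats2-/- extract of litter 121 stood well below the other 5. The ratio there was -4.25, or 19.0-fold lower, against 1.13 in litter 112 and 0.18 in litter 116. Their mean of -0.98 ± 2.87 (SD, n = 3; p in limma of 0.464 unadjusted and 0.876 adjusted) became 0.66 without litter 121.

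**Figure D2:**
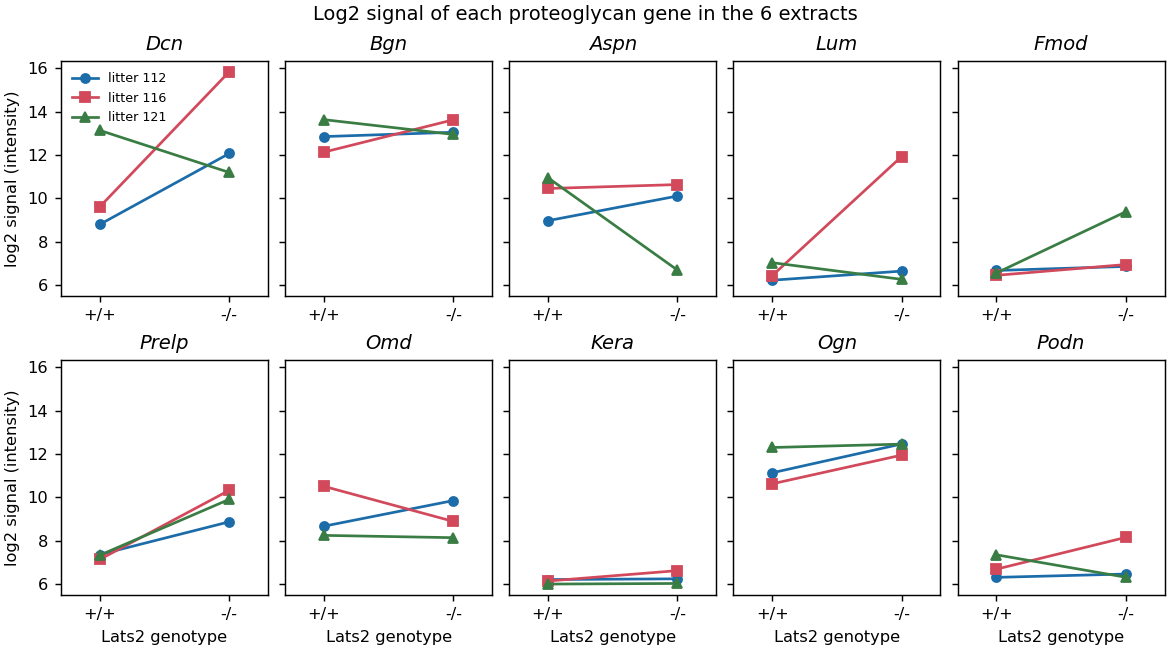
Each panel is 1 gene, the vertical axis is the log2 signal of its brightest probe, and a line joins the Lats2+/+ and Lats2-/- extract of a litter. The Prelp lines all run upward from signals between 7.15 and 7.37, the Dcn lines cross, and Kera stays near 6 in every extract.

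The class II members other than Prelp and Fmod are Lum, Omd and Kera. Lum encodes lumican, which carries keratan sulfate in the cornea and is needed for its regular collagen fibrils. Its log2 signals (A_51_P167527, chromosome 10, 97002264 to 97002323) were 6.24, 6.45 and 7.04 in Lats2+/+ extracts and 6.66, 11.93 and 6.28 in Lats2-/- extracts. Only the Lats2-/- extract of litter 116 was far above the floor. There the ratio was 5.48, or 44.7-fold higher. In litter 112 the Lats2+/+ extract was well above background on 0 of 2 arrays and Lats2-/- was at least 1.34-fold higher. In litter 121 the ratio was -0.77, with the Lats2-/- extract well above background on 1 of 4 arrays. The mean of 1.71 ± 3.32 (SD, n = 3; p in limma of 0.288 unadjusted and 0.808 adjusted) was -0.17 without litter 116.

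Omd encodes osteoadherin (osteomodulin), a member first known from bone. Its log2 signals (A_51_P342926, chromosome 13, 49604415 to 49604474) were 8.68, 10.51 and 8.25 in Lats2+/+ extracts and 9.86, 8.90 and 8.15 in Lats2-/- extracts. The ratios of 1.18, -1.61 and -0.11 had a mean of -0.18 ± 1.40 (SD, n = 3; p in limma of 0.776 unadjusted and 0.961 adjusted). Litter 116, in which Dcn, Lum and Prelp had their largest ratios, was the litter in which Omd was lowest relative to Lats2+/+.

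Kera encodes keratocan, typical of the corneal stroma. Its probe (A_51_P123655, chromosome 10, 97043284 to 97043343) did not pass the filter, with log2 signals of 6.01 to 6.22 in Lats2+/+ extracts. It was well above background on both arrays in the Lats2-/- extract of litter 116 only, at 6.63, which is at least 1.39-fold above the Lats2+/+ extract. Podn, the class V member podocan (A_51_P432958, chromosome 4, 107513604 to 107515674), was dim as well. It had log2 signals of 6.32, 6.70 and 7.36 in Lats2+/+ extracts and of 6.48, 8.16 and 6.33 in Lats2-/- extracts. Its ratios of 0.15, 1.46 and -1.03 had a mean of 0.19 ± 1.25 (SD, n = 3; p in limma of 0.733 unadjusted and 0.951 adjusted).

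Kept member genes of a cluster had the same signs by litter on chromosomes 10 and 1, but differed in size. On chromosome 13 the signs were mixed in litters 116 and 121. On chromosome 10, Dcn and Lum were both higher in litters 112 and 116 and lower in litter 121. Epyc, which encodes epiphycan and is the next gene of the cluster, did not pass the filter but was at least 2.66-fold higher in the Lats2-/- extract of litter 116. On chromosome 13, Aspn, Omd and Ogn had similar ratios of 1.13, 1.18 and 1.33 in litter 112. In litter 116 they had 0.18, -1.61 and 1.32, and in litter 121 they had -4.25, -0.11 and 0.16. On chromosome 1, Prelp and Fmod were each higher in every litter, with Prelp highest in litter 116 and Fmod in litter 121, while Optc, the gene of opticin 8.35 kb from the Prelp probe, stayed at the floor with log2 signals of 6.25 to 6.33.

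**Figure D3:**
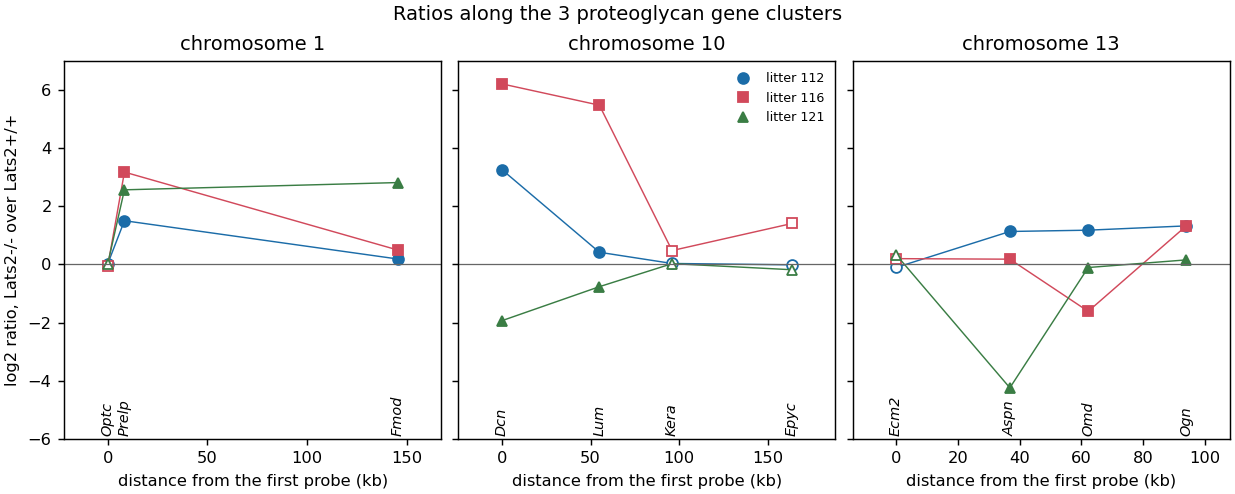
The log2 ratio of Lats2-/- over Lats2+/+ is drawn against the distance in kb from the first probe of each cluster, in genomic order, with 1 symbol per litter and open symbols for probes that did not pass the filter. The thin lines only join points of a litter. Dcn and Lum separate by litter, from 6.22 to -1.94 at Dcn, and the kept chromosome 13 genes lie between 1.13 and 1.33 in litter 112. Of the open symbols, Epyc and Kera in litter 116 are at 1.41 and 0.48.

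Counted by litter, changes of at least 2-fold in either direction were found for 6 member probes in litter 112, against 3.77% of kept probes. In litter 116 there were 8, against 7.71%, and in litter 121 there were 5, against 6.09%. By the brightest probe, 9 of the 9 member genes were higher in Lats2-/- cells in litter 112, 8 in litter 116 and 3 in litter 121, where 52.3%, 50.7% and 50.9% of all genes were. The median member ratios were 1.13, 1.46 and -0.68. At least 2-fold higher in one litter and at least 2-fold lower in another were 5 member probes, for Dcn, Bgn, Aspn, Omd and Podn, against 1.83% of kept probes. This count was chosen after the values had been seen. Bgn is in it by its dimmer probe, which was at -1.04 in litter 112 against 0.20 for the brighter one, and Podn in litter 112 was well above background on 1 of 2 arrays in each extract.

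The spread between litters was wide for these members. The SD of the 3 litter ratios had a median of 1.32 over the 10 member probes and of 0.255 over all kept probes, and 6 member probes lay in the upper tail of all kept probes beyond the SD that 5% of them exceed. Over 4 further kept genes of the family the median SD was 0.098, with Podnl1 at 1.75. Chad, Chadl and Tsku were dim, with log2 signals of 6.39 to 6.57, 6.57 to 6.80 and 7.31 to 7.48, where ratios are compressed. Podnl1 was brighter, at 10.13, 11.63 and 9.16 in the Lats2+/+ extracts of litters 112, 116 and 121. The low median therefore does not show that the rest of the family was stable between litters. The spread of the 10 member probes was also present within a genotype. The range of the 3 Lats2+/+ signals had a median of 1.42 over member probes, against 0.470 over all kept probes, and that of the 3 Lats2-/- signals had a median of 1.77, against 0.485. As a measure of technical error, arrays of 1 litter differed by 0.0042 to 0.52 in the log2 ratio of a member probe, and litters by 1.17 to 8.15.

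**Figure D4:**
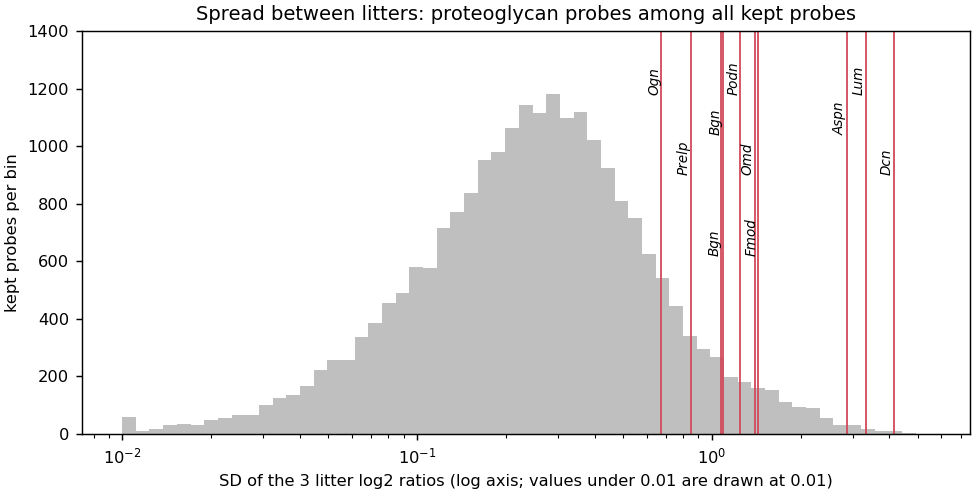
The grey histogram counts all kept probes by the SD of their 3 litter log2 ratios on a log axis, and red lines mark the 10 member probes. The members lie to the right of the bulk, from 0.67 for Ogn to 4.13 for Dcn.

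Markers of the fibroblast and of other cell types were read in the same extracts. All 9 of 9 fibroblast markers were well above background in 5 extracts and 8 of 9 in the Lats2-/- extract of litter 121. This goes with the cell type label by detection only. The log2 of their summed signal was 18.50 to 19.24 in Lats2+/+ extracts and 17.92 to 19.07 in Lats2-/- extracts. The log2 of the summed signal differed between genotypes by 0.02 in litter 112, 0.44 in litter 116 and -1.31 in litter 121. The exception was Pdgfra, a receptor typical of fibroblasts, which in that extract was well above background on 2 of 4 arrays, with a log2 signal of 6.30 and a ratio of -4.96. In litter 121, 1 of the 9 markers was above 0 and the median was -1.13. Thy1, S100a4 and Col3a1 had ratios of -3.66, -3.61 and -3.42, while the other 5 markers lay between -1.13 (Col1a1) and 0.07 (Fn1). In this litter Aspn was at -4.25 and Dcn at -1.94, while Fmod was at 2.82, Prelp at 2.57 and Ogn at 0.16. Of the 7 chondrocyte markers Sox9 was at -3.71 there, 4 were above 0 and the median was 0.01. In the same extract the neural markers had a log2 summed signal of 12.92, against 9.76 to 10.99 in the other 5 extracts, by Nes (ratio of 4.10), with Gfap and Sox2 at the floor. The macrophage markers summed to 11.95, against 9.71 to 11.18, by Lyz2 (3.40), while Cd14 was at -0.74 and 2 of 7 were above 0, with the defining markers Ptprc, Adgre1 and Itgam at the floor in all 6 extracts.

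In litter 116 the Lats2+/+ extract was low in smooth muscle markers. The 4 smooth muscle markers summed to 13.96 there and to 16.84 to 18.02 in the other 5 extracts, with ratios of 3.16 for Acta2 and 4.10 for Tagln. The 5 tendon markers summed to 14.20 there, the highest of the Lats2+/+ extracts, by Scx at 14.02, with Tnmd and Thbs4 near the floor. Scx had ratios of -1.03, -4.90 and 2.95 in litters 112, 116 and 121 and Mkx had 0.41, 2.19 and -1.14, and in litter 116 the other 4 tendon markers were all above 0. Of the 9 fibroblast markers, 7 were higher in Lats2-/- cells in this litter, up to 3.70 for Col3a1, and the other 2 were Vim at -1.19 and S100a4 at -0.97. This is the litter in which Dcn, Lum, Bgn, Podn and Prelp had their highest ratios. In litter 112, in which the brightest probe of every kept member was higher, the 9 fibroblast markers had ratios from -0.50 to 0.90. The tendon markers differed most there, with a summed log2 difference of 3.81, by Egr1. Egr1 is an immediate early gene and had ratios of 4.39, 2.93 and 0.81 in litters 112, 116 and 121. Of the 5 tendon markers 2 were above 0 in litter 112, with a median of -0.12 and Scx at -1.03. In litter 112 the summed adipocyte markers differed by 1.81, by Pparg at 2.66, with 2 of 4 above 0 and Cebpa at -0.42. In litter 116 they differed by -1.07, with 0 of 4 above 0, and in litter 121 by 0.41, with 2 of 4 above 0. The summed macrophage markers differed by -0.90 in litter 116, by Cd14 at -1.64, with 5 of 7 above 0. Over all extracts the tendon markers summed to 11.43 to 14.20 in Lats2+/+ and 13.59 to 15.25 in Lats2-/- cells. Egr1 was the brightest of the list in each Lats2-/- extract, at 15.21, 13.64 and 12.75 in litters 112, 116 and 121. Of 7 chondrocyte markers, 4 or 5 were above background in each extract, with a summed log2 signal of 10.13 to 11.99 in Lats2+/+ and 11.10 to 11.40 in Lats2-/- extracts, and Matn1 and Col9a1 at the floor. The summed difference of this list was 0.49, 1.27 and -0.89 in litters 112, 116 and 121, and in litter 116 Col2a1 was at 2.53 and Sox9 at 1.41. Of 5 osteoblast markers, 1 or 2 were above background, with Sp7, Ibsp and Alpl at the floor. Of 6 endothelial markers at most 2 were, with Pecam1 and Cdh5 at the floor. Of 6 epithelial markers at most 4 were, with Epcam at the floor. Of 5 skeletal muscle markers 1 was above background, Actc1, with Myod1 and Myog at the floor. Actc1 had a log2 signal of 10.34 in the Lats2+/+ extract of litter 116 and of 13.51 to 15.20 in the other 5, and the list's summed difference in that litter was 3.13. Of 4 adipocyte markers 2 or 3 were, with Adipoq at the floor. The part of such differences between cultures in the proteoglycan ratios was not tested, and fewer cells of a type and less RNA per cell cannot be told apart in these extracts.

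The sulfated chains of these proteins are made by a shared set of enzymes. Of 31 such genes, all on the array, 27 were kept, 2 were higher in Lats2-/- cells at an unadjusted limma p under 0.05 and 0 were lower, against 3.56% and 3.29% of all kept probes, a count near that background. The median mean log2 ratio was 0.03. Chst1 encodes the sulfotransferase that adds sulfate to the galactose of keratan sulfate, the chain that lumican, fibromodulin and keratocan can carry. Its log2 signals (A_51_P157840) were 8.50, 7.30 and 6.17 in Lats2+/+ extracts and 9.83, 9.13 and 8.08 in Lats2-/- extracts. The levels differed between litters in both genotypes and the groups overlapped, but Lats2-/- was higher within each litter, with ratios of 1.33, 1.83 and 1.91. The mean of 1.69 ± 0.31 (SD, n = 3 litters) had a limma p of 0.000586 (0.634 after adjustment), and the Lats2+/+ extract of litter 121 was well above background on 1 of 4 arrays. Dse, the epimerase that turns chondroitin into dermatan sulfate, had a mean of 0.30 ± 0.10 (SD, n = 3; p in limma of 0.0454 unadjusted and 0.711 adjusted). Chst7, a chondroitin 6-O-sulfotransferase, had ratios of -1.74, -2.58 and 0.85 (limma p of 0.201). Chst11, a chondroitin 4-O-sulfotransferase, had -0.10, 1.95 and 0.51 (limma p of 0.159).

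**Figure D5:**
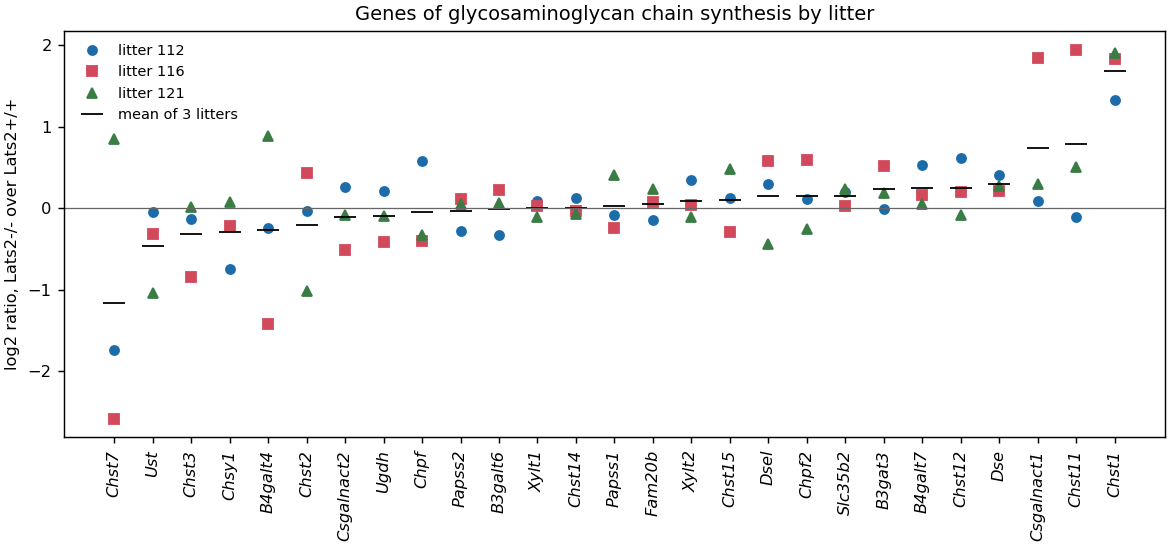
The vertical axis is the log2 ratio of Lats2-/- over Lats2+/+ for the 27 kept genes of glycosaminoglycan chain synthesis, ordered by their mean (black line), with 1 symbol per litter. Chst1 is at the far right with ratios from 1.33 to 1.91, of which that of litter 121 has a Lats2+/+ extract well above background on 1 of 4 arrays.

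Of 33 genes for ligands, receptors, collagens and enzymes that act with these proteoglycans, 32 were on the array and 30 were kept. In limma, 1 was higher at an unadjusted p under 0.05 and 0 were lower, which is again near the shares of all kept probes. This was Tgfbr2, the type II receptor of TGF-beta, with log2 signals of 10.24, 11.34 and 11.07 in Lats2+/+ extracts and of 11.20, 12.23 and 11.65 in Lats2-/- extracts. Its ratios of 0.95, 0.89 and 0.59 had a mean of 0.81 ± 0.19 (SD, n = 3; p in limma of 0.00335 unadjusted and 0.711 adjusted). Loxl2, a collagen cross-linking oxidase, had ratios of 2.29, 4.19 and -0.01 (limma p of 0.0736), and Bmp4, a growth factor, had 2.63, -0.76 and 2.52 (limma p of 0.147). The median mean log2 ratio of the list was 0.42 and the median SD was 1.24. At least 2-fold higher in one litter and at least 2-fold lower in another were 6 of the 30, against 1.83% of kept probes: Col1a1, Col3a1, Col6a2, Col12a1, Fbn1 and Mmp13. These 6 were named after their values had been seen.

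Among 9 further members of the leucine-rich proteoglycan family, 4 were kept and 0 had an unadjusted limma p under 0.05. Podnl1, a relative of Podn, had ratios of 1.55, -1.94 and -0.16 (limma p of 0.816). Omd had 1.18, -1.61 and -0.11 in the same litters, whereas Podn had 0.15, 1.46 and -1.03. Chadl had a mean of -0.07 (limma p of 0.559). Of 14 other secreted matrix proteoglycans and their link proteins, 13 were on the array, 4 were kept and 0 had an unadjusted limma p under 0.05. Vcan, the gene of versican, had ratios of 0.23, 3.56 and 0.43 (limma p of 0.151), and Agrn, the gene of agrin, had -0.82, 0.46 and 0.51 (limma p of 0.887).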

How the data were processed

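RNA from 3 litters of Lats2-/- and Lats2+/+ MEFs was read on 8 arrays of a whole mouse genome Agilent design with 2 colours, annotated on mm8. The authors extracted the scans with Agilent Feature Extraction (10.5.1.1 in the submitters' processing notes, 10.7.3.1 per the file headers). Spot and background intensity values without normalization, quality flags, and log10 ratios of dye-normalized signals are in the deposited scanner files; the value table holds log10 ratios by the authors.

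Mean intensities were corrected with normexp (offset 50) in limma 3.58.1 (R 4.3.3). Control spots and 860 outlier gene spots were left out, no gene spot was saturated, and loess was applied within arrays. Repeat spots were averaged, and then all arrays of each litter, so that n is 3 litters. A probe was kept if well above background, on most arrays of an extract, in at least 2 of 3 extracts of either genotype (22642 probes). Signals per extract followed Aquantile. The 3 litter ratios were tested against 0 with limma's moderated test (two-sided), with Benjamini-Hochberg adjustment over kept probes at 0.05. A gene with several probes was read by the brightest. The unadjusted p-values rest on limma's pooled variance; an exact sign-flip permutation test of 3 litters could not go below 0.25 (two-sided). The labels pair the genotypes by litter. P-values measure the spread between these litters, and precision is limited by how few arrays and litters there were. The script was tested on simulated data. Alternatives covered offset, signals, normalization, filter, test, blocks, probe choice and left-out litters.

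The members and lists were chosen with earlier results of these data known. Every member probe was named, with Lats2 and, from each list, genes with an unadjusted p under 0.05 and 1 sign in all litters and the 2 others with the largest absolute mean. The study's methods ask for 2-fold and a t-test p under 0.05. Protein sequences, probe sequences and exon positions in mm8 were not used here. Promoters came from RefSeq.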

Additional observations from a re-analysis of the deposited data

How the results depend on the processing

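Prelp was higher with an unadjusted p under 0.05 under all 16 alternatives, with means from 2.04 to 3.07 and p from 6.32e-07 to 0.0386, the latter with the methods' t-test on 3 litters. Ogn was higher under all 16, with p under 0.05 in 11. Dcn and Fmod were higher under all alternatives, with p under 0.05 in 3 each. The median over member genes stayed between 0.54 and 0.95. Over 1.5 times away from the reported mean, Fmod was 2.16 from the processed signals and from the value table of the authors, and Bgn was 0.08 with the mean of its probes. With slide as a fixed block, Aspn was -1.80, Bgn 0.08, Dcn 1.40, Lum 1.09 and Podn -0.11. In that fit litter 121 is alone on its slide, so the error leaves out the spread to that litter. It is among the alternatives counted above with p under 0.05 for Prelp, Ogn and Fmod. With single litters left out, Bgn ranged from -0.24 to 0.84, Lum from -0.17 to 2.95, Omd from -0.86 to 0.54, Podn from -0.44 to 0.81 and Aspn from -2.03 to 0.66; Bgn, Lum, Omd and Podn turned without litter 116 and Aspn without litter 121.

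The number of probes past the adjusted threshold was 0 in the main test and 341 (213 higher and 128 lower) with litter as a random block over the arrays, a fit in which arrays of the same extracts add to the count of observations, and 203 (135 higher and 68 lower) when a dye term was added. Prelp passed the adjusted threshold in both, and Ogn in the first. The number of member genes with an unadjusted p under 0.05 was 2. It was 1 without a filter on dim probes, with the methods' t-test and without the replicate block, that is, with the pairing by litter left out (Prelp in each). It was 4 in the random block fit and with the dye term (Dcn, Fmod, Ogn and Prelp), and 4 with slide as a fixed block (Fmod, Ogn, Aspn and Prelp). With single litters left out it was 1 to 3, being 1 (Prelp) without litter 112 and without litter 116. For genes of the other lists the number was 3. It was 2 with the smaller offset, the processed signals, the value table of the authors and median centring. It was 4 with the mean of all kept probes of a gene and 1 with the strict filter of 19449 probes. It was 0 without the replicate block, 12 in the random block fit and with the dye term, and 4 to 7 with single litters left out. It is again not given with slide as a fixed block. The cause of these shifts was not tested. Ratios of probes near background (Lum, Fmod, Kera, Podn) are limited by the floor of the array.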
